A study of Mus musculus with 115 samples.

Results

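Rn7sk, Rn7s1, Rn7s2, Rpph1 and Rmrp are 5 short noncoding RNA genes out of the 45699 genes in the table of prostate expression from (TRAMP x WSB/EiJ) F2 mice. They were chosen by name as abundant RNAs that RNA polymerase III makes, and all 5 were found in the table. The table holds 115 libraries, each with its own label, from transgene-positive F2 males of the cross between C57BL/6J TRAMP females and WSB/EiJ males. All of them form 1 condition, and the table has no transgene-negative mice. TRAMP mice carry the SV40 T antigen under the androgen-responsive probasin promoter, which is active in prostate epithelium, and the WSB/EiJ strain descends from wild mice. Mice were killed at 1 fixed age or earlier at a humane endpoint, and for prostates that were small at collection the RNA came from the ventral prostate. Genotypes, tumor traits and each animal's age at death were not used here. Values are in TPM, a measure of transcript abundance that divides by transcript length and scales each library to a constant total. The sequencing depth is unknown. The length used is uncertain for RNAs near the cDNA fragment size of about 275 base pairs. Levels of these RNAs beside those of longer genes are therefore uncertain.

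RNA polymerase III transcribes short untranslated RNAs. 7SK RNA, the product of Rn7sk, is bound by Larp7 and Mepce and with Hexim proteins holds the elongation kinase P-TEFb (Cdk9 with cyclin T) inactive. 7SL RNA, the product of Rn7s1 and Rn7s2, is the RNA of the signal recognition particle (SRP), which brings ribosomes that make secreted and membrane proteins to the endoplasmic reticulum. Rpph1 encodes the RNA of RNase P, which trims the leader of precursor tRNAs. Rmrp encodes the RNA of RNase MRP, which acts in ribosomal RNA processing and shares most of its proteins with RNase P. The prostate is a secretory gland, and Tgm4, a transglutaminase of the seminal secretion, marks its luminal cells, while Mki67 marks dividing cells and Chga (chromogranin A) marks neuroendocrine cells.

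All positions are on GRCm38 with the GENCODE M21 annotation. Rn7sk is a single-exon gene of 331 bases on the minus strand of chromosome 9, from 78175303 to 78175633. Rn7s1 and Rn7s2 are 300 bases each and lie on chromosome 12, on opposite strands. Rpph1 is 319 bases long, on the minus strand of chromosome 14 from 50807449 to 50807767, and Rmrp is 271 bases long, on the minus strand of chromosome 4 from 43492788 to 43493058. In Rpph1, 233 bases are also exon of the protein-coding gene Ccnb1ip1 on the same strand, which had a median of 0.05 TPM. In Rmrp, 124 bases are also exon of Ccdc107 on the opposite strand, with a median of 14.5 TPM. The sources used here do not state that strand was kept, so reads from these overlaps cannot be told apart. The sequences below are annotated transcripts of GENCODE M21, 5′ to 3′, written as DNA, and are shown because they decide what the table could separate. Capitals in Rn7sk mark the 3 occurrences of GATC, which is its own reverse complement. In RNA this is GAUC, and GAUC repeats are known as a binding element of Hexim proteins. The letters are no mark of 7SK, since Rn7s1 held 4 of them. Among 131058 annotated transcripts of at least 300 bases, 6.33% held at least 3 GATC in their first 300 bases. For Rn7sk and Rpph1 the first 300 bases are shown.
Rn7sk: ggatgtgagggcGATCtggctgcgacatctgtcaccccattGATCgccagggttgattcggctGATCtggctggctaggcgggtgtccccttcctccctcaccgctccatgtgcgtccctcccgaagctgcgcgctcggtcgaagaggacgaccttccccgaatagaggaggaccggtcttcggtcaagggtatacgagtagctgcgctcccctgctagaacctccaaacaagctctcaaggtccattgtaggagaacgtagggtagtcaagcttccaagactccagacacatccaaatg
Rpph1: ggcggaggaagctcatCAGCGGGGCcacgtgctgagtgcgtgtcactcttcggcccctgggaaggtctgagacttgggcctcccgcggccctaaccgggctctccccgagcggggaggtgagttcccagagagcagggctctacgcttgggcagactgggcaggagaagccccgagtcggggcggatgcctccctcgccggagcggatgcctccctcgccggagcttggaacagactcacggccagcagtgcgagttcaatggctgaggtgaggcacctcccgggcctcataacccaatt
Rmrp: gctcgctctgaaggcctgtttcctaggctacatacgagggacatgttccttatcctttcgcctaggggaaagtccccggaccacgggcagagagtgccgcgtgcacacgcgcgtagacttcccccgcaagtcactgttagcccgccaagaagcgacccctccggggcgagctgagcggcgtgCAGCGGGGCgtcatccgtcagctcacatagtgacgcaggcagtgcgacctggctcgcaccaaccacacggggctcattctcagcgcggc
Rn7s2 differed from Rn7s1 at 0 of 300 bases. Their values were identical in all 115 libraries, so the table cannot say how 7SL RNA divides between them, and they were counted once, as Rn7s1, in every relation. In Rpph1 and Rmrp the capitals mark their longest shared run, of 9 bases. That run, on either strand, was in the first 300 bases of 0.559% of the same transcripts. The longest run shared by any pair of the 4 distinct RNAs was between 7 and 10 bases, so no 2 of them could be mistaken for each other over a read.

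Copies of 7SK and of RNase P RNA took little of the signal. Of 4 annotated copies that cover at least 80% of Rn7sk, none reached 95% identity, and together they held a median of 0.000158% of the value of Rn7sk. The RNase P RNA copy Rprl3, 86.0% identical over 80.6% of Rpph1, had a median of 192 TPM. The 4 copies of Rpph1 summed to a median of 1.97% of its value and to at most 6.11%.

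The 5 RNAs took more of the TPM than all other genes together in 108 of the 115 libraries. As they were chosen for their abundance, their shares are given as a description with no test. All 5 are between 271 and 331 bases long, where the length that TPM divides by is uncertain. Their shares and ranks are therefore of TPM and may differ from those of RNA molecules. Their summed share was 46.3% in the lowest library, 61.3% at the median and 78.5% in the highest. Rn7s1 held between 10.6% and 33.0% of a library's TPM, with a median of 20.2%, and Rn7s2 is listed with the same values. Rn7sk held between 7.62% and 39.8%, with a median of 14.9%. Rn7s1 and Rn7sk were among the 5 largest genes in all 115 libraries. Rpph1 ranged from 0.463% to 3.36% with a median of 1.00%, and Rmrp from 0.455% to 3.79% with a median of 0.911%. By their mean, Rpph1 and Rmrp ranked 4 and 5 of all genes, but they were among the 5 largest in 52 and 43 libraries. The order of their TPM values was thus 7SL, 7SK and then the RNase P and RNase MRP RNAs. With Rn7s1 and Rn7s2 summed as the whole 7SL signal, 7SL had a median share of 40.3% and 7SK was above it in 17 libraries. The ratio of Rpph1 to Rmrp ran from 0.449 to 2.14 with a median of 1.08. Neighbours in this order therefore overlapped.

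A share this large sets the scale of every other gene, because TPM sums to a constant. Over the libraries of the larger part defined below, the median correlation of 18231 other genes with the summed 5 RNAs was -0.436 on the deposited scale, and 91.8% of genes were negatively correlated. TPM was therefore rescaled so that all other genes sum to 1000000, which multiplied a library's values by between 1.86 and 4.64 with a median of 2.58. On the rescaled scale the median correlation was -0.0323 with 54.7% of genes below 0. The median of the smaller part moved from -0.242 to 0.0949. Relations below are on log2(rescaled TPM + 1) unless the deposited scale is named.

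The libraries fell into separate parts on the first principal component of 18245 other genes, which held 50.3% of the variance (fall in BIC of 190 and Ashman D of 5.07 for a mixture of 2 normal distributions). The larger part held 78 libraries and the smaller 37. The labels do not name these parts. Mki67 was between 1.04 and 56.9 rescaled TPM in the larger part, with a median of 10.2, and between 12 and 389 in the smaller, with a median of 212. Chga was at most 10.8 in the larger part and had a median of 172 in the smaller. Tgm4 had a median of 18347 in the larger part and of 5.82 in the smaller. The prostate origin that the labels give was thus visible in Tgm4 in the larger part, and low in most libraries of the smaller part. Because pooled correlations would mostly restate this split, all relations were computed within each part.

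The shares of the RNAs are given for each part without a test. For the larger part, Rn7sk held between 7.62% and 24.2% with a median of 12.7%, and in the smaller between 15.7% and 39.8% with a median of 27.6%. Rn7s1 went the other way, with 14.7% to 33.0% and a median of 22.2% in the larger part and 10.6% to 23.2% and a median of 15.1% in the smaller. Rpph1 had a median of 0.801% in the larger part and of 2.16% in the smaller. For Rmrp the medians were 0.795% and 2.24%. The ranges of the parts overlapped for every one of these RNAs. The summed share of all 5 had medians of 60.4% and 62.7%. Rn7s1 and Rn7s2 summed had a median of 44.5% in the larger part and of 30.2% in the smaller. The median of this 7SL sum was above that of 7SK in both parts, and 7SK exceeded it in 0 libraries of the larger part and in 17 of the smaller. The tissue was bulk, so fewer cells of a type and less RNA per cell cannot be told apart.

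**Figure D1:**
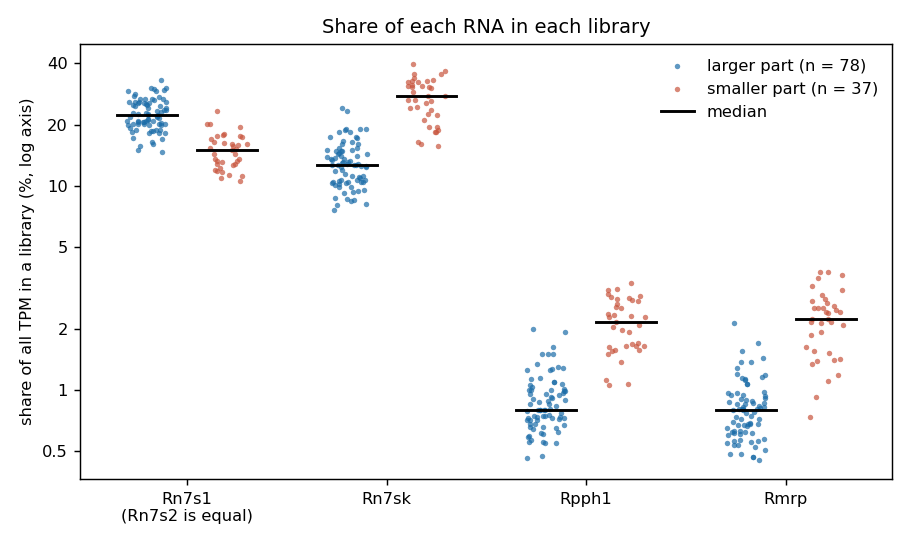
Share of the TPM of each library, in percent on a log axis, held by Rn7s1, Rn7sk, Rpph1 and Rmrp, with 1 point for each library of the larger part (blue, n = 78) and of the smaller part (red, n = 37) and a black line at each median. Rn7s1 has its higher median, 22.2%, in the larger part, while Rn7sk, Rpph1 and Rmrp have theirs in the smaller part.

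In the larger part, 7SK, RNase P and RNase MRP RNA rose and fell together, and on the rescaled scale 7SL RNA followed them less closely. Rn7sk was between 165513 and 805887 rescaled TPM with a median of 312159 there. Rmrp was between 9189 and 65992 with a median of 19082, and Rpph1 between 11582 and 69306 with a median of 20760. The 7SK and RNase MRP RNAs were correlated at r = 0.848 and rho = 0.791 over the 78 libraries. Both permutation p-values were 1e-05, which is the smallest value that 100000 two-sided permutations allow. When the 2 libraries with the most extreme Rn7sk were left out, r was 0.800. Rpph1 and Rmrp had r = 0.813 and rho = 0.740 (permutation p = 1e-05 for each), and r = 0.752 without the 2 farthest libraries. For Rn7sk and Rpph1, r was 0.805 and rho 0.739 (permutation p = 1e-05 for each), and r was 0.738 without the 2 farthest. Each of these correlations was above that of at least 99% of all genes tested with the same RNA.

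Relations were called in a limma fit of every gene on the RNA, with Benjamini-Hochberg adjustment over all genes and a threshold of 0.05. Over the larger part, 4 of the 6 pairs of distinct RNAs were called, and 40.2% of all genes were called with Rn7sk, 35.1% with Rn7s1 and 17.7% with Rpph1. The 7SL RNA was between 274842 and 1350784 rescaled TPM with a median of 567420. Its relation with Rmrp was called at r = 0.398 and rho = 0.400 (n = 78, permutation p = 0.00025 and 0.00026, limma adjusted p = 0.00618, r = 0.352 without the 2 farthest libraries). The r of Rn7s1 with Rn7sk, Rpph1 and Rmrp depended on the scale. It was -0.622, -0.373 and -0.235 on the deposited scale, 0.444, 0.468 and 0.526 with median-of-ratios scaling, and 0.543, 0.643 and 0.486 after 3 principal components were removed. With Rpph1 the 7SL RNA had r = 0.303 (permutation p = 0.00679) and rho = 0.251 (permutation p = 0.0272), and it missed the threshold (limma adjusted p = 0.0534, r = 0.245 without the 2 farthest). It passed under 5 alternatives, with adjusted p of 0.00559 and a negative r on the deposited scale, 0.00301 with median-of-ratios scaling, 0.0137 without 20 further genes in the total, 5.03e-05 after 3 principal components and 0.0227 without the trend. Rn7sk and Rn7s1 had r = 0.224 (permutation p = 0.0478) and rho = 0.156 (permutation p = 0.169), with a limma adjusted p of 0.704, and r = 0.123 without the 2 farthest.

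The same 3 RNAs gave the called pairs in the smaller part. Rn7sk was between 309283 and 1192562 rescaled TPM there with a median of 751945, and Rn7s1 between 217644 and 656797 with a median of 380926. Of the 6 pairs, 3 were called, where 58.2% of all genes were called with Rn7sk, 0.0329% with Rn7s1 and 34.5% with Rpph1. The 3 were Rn7sk and Rpph1 (r = 0.652, rho = 0.618, permutation p = 2e-05 and 6e-05), Rpph1 and Rmrp (r = 0.631, rho = 0.545, permutation p = 6e-05 and 0.00075), and Rn7sk and Rmrp (r = 0.614, rho = 0.651, permutation p = 6e-05 and 3e-05), each with n = 37. Their limma adjusted p-values were 0.00179, 0.00614 and 0.00255, and r was 0.618, 0.590 and 0.672 without the 2 farthest libraries. Rn7s1 and Rmrp had r = -0.0884 and rho = -0.102 (permutation p = 0.604 and 0.547). With Rpph1, Rn7s1 had r = 0.387 and rho = 0.366 (permutation p = 0.0179 and 0.0261, limma adjusted p = 0.411), and with Rn7sk r = 0.264 and rho = 0.172 (permutation p = 0.115 and 0.309). Among all genes, 86.3% had a lower correlation with Rn7sk than Rpph1 did and 83.0% a lower one than Rmrp, and 99.2% had a lower correlation with Rpph1 than Rmrp did. On the deposited scale 2 of the 6 pairs were called. The 3 calls became 1 with median-of-ratios scaling and 0 after 3 principal components were removed, where their r lay between 0.276 and 0.389. When the libraries that were low in Chga were left out, 2 of the 6 pairs were called, where 34.9% of all genes were called with Rn7sk and 0.0439% with Rpph1.

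**Figure D2:**
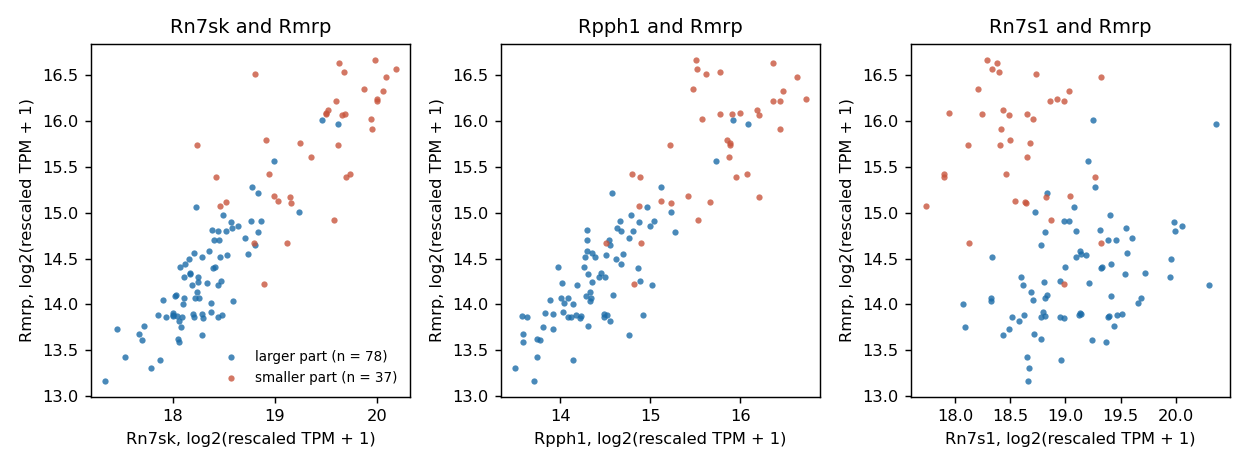
Level of Rmrp against that of Rn7sk, Rpph1 and Rn7s1, each as log2(rescaled TPM + 1), with 1 point for each library of the larger (blue) and the smaller part (red). Rmrp rises with Rn7sk (r = 0.848 in the larger part) and Rpph1 (r = 0.813), while the points against Rn7s1 scatter more widely (r = 0.398).

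The relations of the 4 distinct RNAs to Mki67, Chga and Tgm4 came to 16 in the larger part and 12 in the smaller, of which limma called 1 in each. Toward Mki67, 7SL RNA stood out in the larger part and 7SK RNA in the smaller. In the larger part, Rn7s1 was lower where Mki67 was higher, with r = -0.515 and rho = -0.525 (permutation p = 2e-05 for both, n = 78), and r = -0.504 after dropping the 2 most extreme libraries of Mki67. Among 18234 genes, 0.126% had a lower correlation with Mki67 than Rn7s1. The level of Rn7s1 fell by 0.225 on the log2 scale for each doubling of Mki67 + 1. With Mki67 as the fitted gene and Rn7s1 as the covariate, the limma adjusted p was 2.26e-05. With Rn7s1 as the fitted gene it was 0.270. The 2 fits use the same points, and they differ in the spread that limma lends to the fitted gene from genes of like level. At the level of Rn7s1 that trend gave a prior SD of 8.19 on the log2 scale, against a residual SD of 0.423 for Rn7s1 itself. Without the trend the prior SD was 0.353 and the adjusted p was 9.54e-06, where 5.01% of all genes were called negatively. That fit was added after the data were seen. After 3 principal components were removed from all genes, the relation was gone, with r = 0.0426 (adjusted p = 0.961). On the other scales tried, r lay between -0.674 and -0.472. Within the 59 libraries of the larger part that were high in Tgm4, the relation had r = -0.429 and rho = -0.380 (permutation p = 0.00078 and 0.00357), and r = -0.376 without the 2 farthest. The libraries labelled W5000 to W5005 had Mki67 between 1.04 and 3.28 and Rn7s1 between 699766 and 1089344 rescaled TPM. The medians of the larger part were 10.2 and 567420. The part of this series of labels in the relation was not tested.

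Rn7sk had no such relation in the larger part, with r = 0.167 (n = 78, permutation p = 0.144) and rho = 0.257 (permutation p = 0.0234), and r = 0.126 without the 2 farthest libraries. On the deposited scale its r was 0.477. Rpph1 (r = 0.0508, rho = 0.0982, permutation p = 0.657 and 0.394) and Rmrp (r = -0.00323, rho = 0.0115, permutation p = 0.978 and 0.920) were likewise near 0. None of the 4 RNAs was called with Mki67 as the covariate in the larger part, where 37.5% of all genes were called positively and 5.08% negatively.

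In the smaller part it was Rn7sk that followed Mki67, upward, with r = 0.682 and rho = 0.795 (permutation p = 1e-05 for both, n = 37). Without the 2 libraries lowest in Mki67, which were the 2 farthest from its median, r was 0.792. Its level rose by 0.372 on the log2 scale for each doubling of Mki67 + 1, and 93.2% of 18228 genes had a lower correlation. With Mki67 as the fitted gene the limma adjusted p was 1.36e-05, with Rn7sk as the fitted gene 0.221, and without the trend 2.89e-05, where 31.3% of all genes were called positively. The prior SD from the trend was 5.24 against a residual SD of 0.389. After 3 principal components were removed r was 0.510. Rmrp also rose with Mki67 (r = 0.435, rho = 0.573, permutation p = 0.00578 and 0.00033, limma adjusted p = 0.0434, r = 0.616 without the 2 farthest libraries). That call was lost with a pseudocount of 0.1, with no filter on low values and with median-of-ratios scaling (adjusted p = 0.0523, 0.0590 and 0.220). It was the only one of the 4 called with Mki67 as the covariate, where 31.4% of all genes were called positively and 24.7% negatively. Rpph1 had r = 0.326 (permutation p = 0.0465) and rho = 0.468 (permutation p = 0.00366), with a limma adjusted p of 0.155, and r = 0.554 without the 2 farthest. Rn7s1 had r = -0.0235 and rho = -0.0768 (permutation p = 0.891 and 0.652), and r = -0.0530 without the 2 farthest. Without the libraries low in Chga (n = 32), Rn7sk had r = 0.790 and rho = 0.744 (permutation p = 1e-05 and 2e-05), and Rn7s1 had r = -0.360 and rho = -0.362 (permutation p = 0.0422 and 0.0421). Of this part, the libraries listed last, from W4356 on, had Mki67 between 198 and 389 and Rn7sk between 457401 and 1192562 rescaled TPM. Lower values of Mki67 were all in libraries listed earlier. The labels used here name no batch, and the part of this order in the relation was not tested.

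The ratio of Rn7sk to Rn7s1 does not depend on any scaling of the other genes. Its log2 rose with Mki67 in the larger part with r = 0.571 and rho = 0.581 (permutation p = 1e-05 for both, n = 78, r = 0.540 without the 2 farthest libraries). Within the smaller part r was 0.645 and rho was 0.765 (n = 37, permutation p = 1e-05 for each, r = 0.764 without the 2 farthest). Whether the relations differ between the parts, or depend on the order in which the libraries are listed, was not tested.

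**Figure D3:**
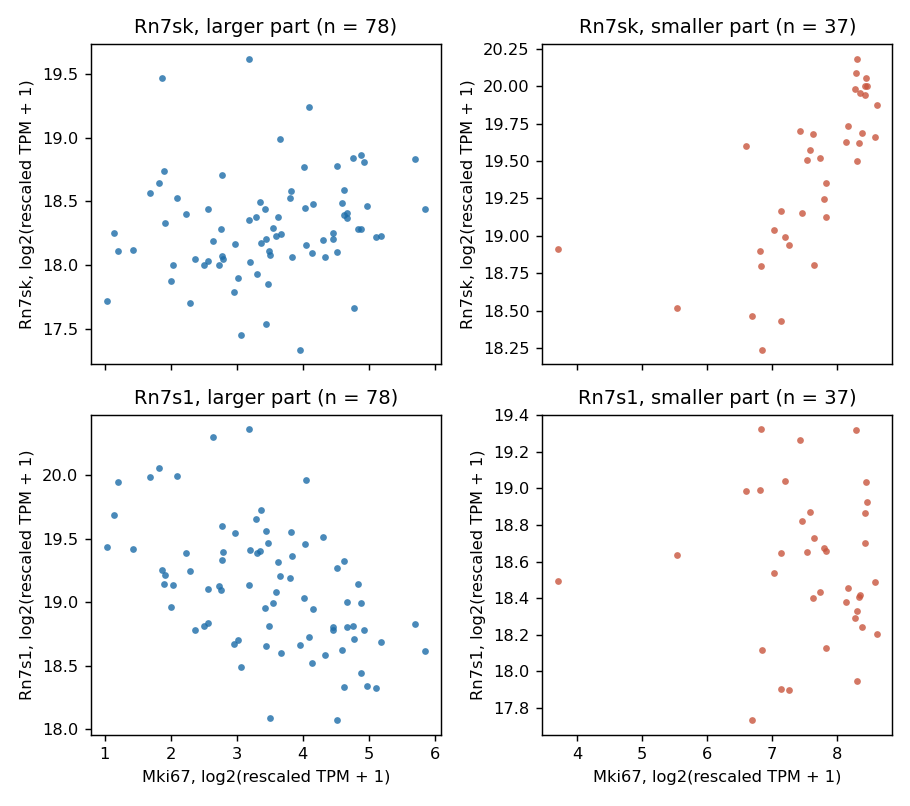
Level of Rn7sk (top) and Rn7s1 (bottom) against Mki67, each as log2(rescaled TPM + 1), with 1 point for each library of the larger part (left, n = 78) and the smaller part (right, n = 37), on axes that differ between panels. Rn7s1 falls with Mki67 in the larger part (r = -0.515) and Rn7sk rises with it in the smaller (r = 0.682).

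Chga was tested in the 72 libraries of the larger part that did not stand apart on it and in the smaller part. Its median over the whole larger part was 0.819 rescaled TPM, below the pseudocount of 1, so the 72 hold low values of Chga. In the 72, all 4 relations were weak, with r between -0.197 (Rn7sk, permutation p = 0.0968, rho = -0.173, permutation p = 0.149) and 0.148 (Rn7s1, permutation p = 0.214, rho = 0.168, permutation p = 0.156), and none was called, where 1.53% of all genes were called. Over the smaller part Rn7sk had r = 0.432 with Chga (n = 37, permutation p = 0.00712), but rho was 0.0199 (permutation p = 0.906). The relation rested on 5 libraries low in Chga. Without them (n = 32) r was -0.411 and rho was -0.434 (permutation p = 0.0195 and 0.0141, limma adjusted p = 0.838). For Rpph1 the same step moved r from 0.225 to -0.410, with rho = -0.584 (permutation p = 0.0195 for r and 0.00051 for rho, limma adjusted p = 0.440). Rn7s1 had r = 0.477 (permutation p = 0.00276) and rho = 0.247 (permutation p = 0.143) over the 37, and r = -3.14e-05 without the 5. Of all genes, 20.5% were called positively and 19.2% negatively with Chga in the smaller part, and none of the 4 RNAs was (limma adjusted p from 0.393 to 0.881). Without the trend Rn7sk and Rn7s1 were, with adjusted p of 0.0227 and 0.0123, where 20.4% of all genes were called positively.

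Toward Tgm4, limma called Rpph1 alone among the 4 RNAs, and in the libraries high in Tgm4. Tgm4 itself separated the larger part into 59 libraries that were high and 19 that were low, so relations were computed in each. In the 59, Rpph1 fell with Tgm4 with r = -0.399 and rho = -0.346 (permutation p = 0.00149 and 0.0078, limma adjusted p = 0.00795), and with r = -0.299 without the 2 farthest libraries. With median-of-ratios scaling r was -0.160 (adjusted p = 0.340). Rpph1 was the only one of the 4 RNAs called there, where 40.3% of all genes were called negatively. Rn7sk had r = -0.283 (permutation p = 0.0291) and rho = -0.254 (permutation p = 0.0529), and Rn7s1 had r = 0.274 (permutation p = 0.0352) and rho = 0.317 (permutation p = 0.0149), with limma adjusted p of 0.487 and 0.6. These r turned to 0.0147 with median-of-ratios scaling for Rn7sk and to -0.138 after 3 principal components for Rn7s1. In limma without the trend, the adjusted p in the 59 was 0.0531 for Rn7sk, 0.0611 for Rn7s1 and 0.00457 for Rpph1. The log2 ratio of Rn7sk to Rn7s1 had r = -0.480 and rho = -0.462 (n = 59, permutation p = 0.00016 and 0.00036, r = -0.415 without the 2 farthest). In the 19 libraries low in Tgm4, r lay between 0.151 and 0.437, permutation p between 0.0632 and 0.536, and none was called, where 0.319% of all genes were.

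Within the smaller part the upper quartile of Tgm4 was 12 rescaled TPM. Rmrp had r = -0.370 and rho = -0.475 with it (n = 37, permutation p = 0.0213 and 0.00312, limma adjusted p = 0.297). Without 4 libraries high in Tgm4 (n = 33), r was -0.577 and rho was -0.510 (permutation p = 0.00044 and 0.0028, limma adjusted p = 0.695). Rn7s1 had r = 0.384 (permutation p = 0.0173), but rho was 0.166 (permutation p = 0.327), and r was -0.0370 without the 4. None of the 4 RNAs was called with Tgm4 over the 37, where 3.48% of all genes were.

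**Figure D4:**
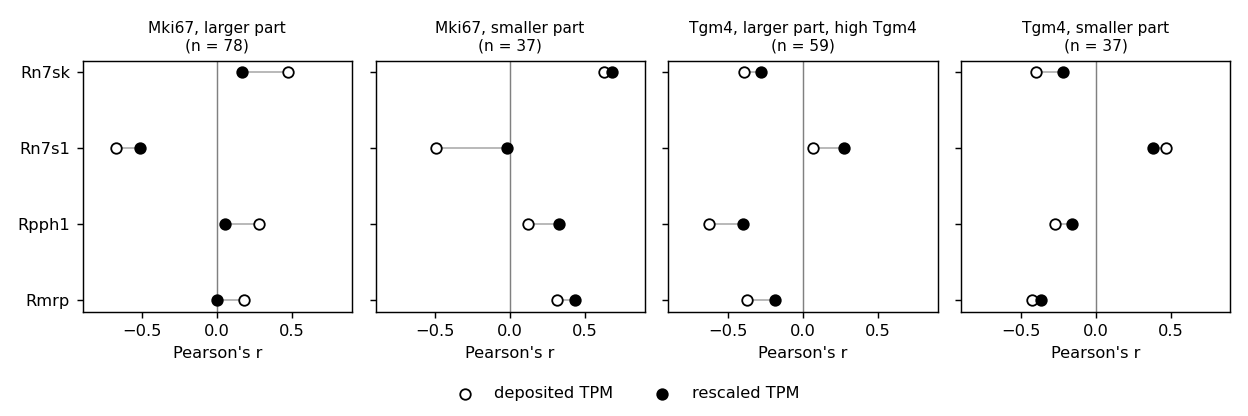
Pearson's r of Rn7sk, Rn7s1, Rpph1 and Rmrp with Mki67 and with Tgm4, computed on the deposited TPM (open circles) and on TPM rescaled without the 5 RNAs (filled circles), in 4 sets of libraries. The r of Rn7sk with Mki67 in the larger part moves from 0.477 to 0.167 and that of Rn7s1 in the smaller part from -0.496 to -0.0235.

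The proteins that bind these RNAs were examined next, as slopes of their log2 level on that of the RNA in the same limma fits. The lists were chosen with earlier results of these data known, so each count is a description to be read beside the share of all genes called. For 7SK, 4 of 7 partners were called positively with Rn7sk in the larger part and none negatively, where 39.8% of all genes were called positively and 0.335% negatively. Ccnt2 and Ccnt1, the cyclins T of P-TEFb, had slopes of 0.48 and 0.35 (limma adjusted p = 0.000313 and 0.000853). The kinase Cdk9 and the capping enzyme Mepce were the other 2 (adjusted p = 0.0107 and 0.0266). Without the 19 libraries low in Tgm4, 1 of the 7 was called positively, where 9.81% of all genes were. Over the smaller part Ccnt2, Ccnt1 and the 7SK-binding protein Larp7 were called positively, with slopes of 0.55, 0.35 and 0.35 (adjusted p = 0.000217, 0.00239 and 0.0082). Hexim1, the P-TEFb inhibitor, was called negatively with a slope of -0.29 (adjusted p = 0.0186). There, 36.5% of all genes were called positively and 21.7% negatively. Without the libraries low in Chga, 2 of the 7 were called positively, where 26.6% of all genes were.

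For 7SL, 5 of the 9 SRP and SRP receptor genes in the table were called positively with Rn7s1 in the larger part, where 8.31% of all genes were called positively and 26.8% negatively. The receptor subunit Srpr had a slope of 0.53 (limma adjusted p = 3.93e-06), Srp68 of 0.51 (adjusted p = 5.18e-06), Srp14 of 0.48 (adjusted p = 0.000348) and Srp72 of 0.29 (adjusted p = 0.00124). Srp68, Srp72 and Srp14 are proteins that bind 7SL RNA in the particle. The median r of the 9 genes was 0.287. In the 59 libraries high in Tgm4, 2 of the 9 were called positively and 1 negatively, with a median r of 0.104, where 4.04% and 23.0% of all genes were called. With Tgm4 as the covariate in these 59 libraries, limma called all 9 positively, with a median r of 0.638. The median r of all genes with Tgm4 there was -0.217. The part of the Tgm4 level in the relation of these 9 genes with Rn7s1 was not tested. Over the smaller part none of the 9 was called with Rn7s1 by limma, with 1 at an unadjusted p under 0.05, where 6 of 18228 genes were called.

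The protein subunits of RNase P and RNase MRP did not follow the RNAs upward. Of 10 tested, limma called none with Rpph1 or with Rmrp in the larger part, and 0 had an unadjusted p under 0.05, where 17.7% and 10.1% of all genes were called. Over the smaller part 1 was called negatively with Rpph1, the shared subunit Pop7 (slope -0.28, limma adjusted p = 0.00351), where 15.3% of all genes were. Rpp25l, Pop5, Rpp21 and Pop7 were called negatively with Rmrp, where 7.85% of all genes were, with slopes between -0.35 and -0.18 and adjusted p between 0.00905 and 0.0400. Without the libraries low in Chga, 0 and 3 were called, where 0.022% and 7.03% of all genes were called negatively.

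Genes of the RNA polymerase III machinery were counted with each RNA. Of 21 transcription and assembly factors, 15 were called positively with Rn7sk in the larger part, and 4 of 11 polymerase subunits, where 39.8% of all genes were. The highest correlations were those of Tbp (0.40), Snapc3 (0.41), Snapc4 (0.47) and Pou2f1 (0.41), with limma adjusted p between 0.000344 and 0.00164. Tbp, the SNAPc subunits Snapc3 and Snapc4, and Pou2f1 (Oct1) act at promoters of the 7SK kind, which lie upstream of the gene. The counts fell to 2 of 21 factors and 0 of 11 subunits without the 19 libraries low in Tgm4, where 9.81% of all genes were called positively. Over the smaller part 9 of 21 factors were called positively and 1 negatively, where 36.5% and 21.7% of all genes were. Of the 11 subunits, 4 were called positively and 2 negatively there. Without the libraries low in Chga, 9 factors and 3 subunits were called positively, where 26.6% of all genes were. Over the whole smaller part, Snapc4, Pou2f1, Snapc3 and Tbp again led, with slopes of 0.81, 0.84, 0.70 and 0.60 (adjusted p between 6.99e-08 and 5.19e-06).

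With Rmrp, 1 of 21 factors (Snapc3) was called positively in the larger part, where 10.1% of all genes were. In the smaller part 7 were called positively and 2 negatively with Rmrp, where 22.9% and 7.85% of all genes were. With Rpph1, 5 were called positively in the larger part, where 16.3% of all genes were, and 1 positively and 1 negatively without the libraries low in Tgm4, where 11.2% and 3.81% were. In the smaller part 4 were called positively with Rpph1 and 2 negatively, where 19.2% and 15.3% of all genes were, and 0 without the libraries low in Chga, with 0.0439% of all genes called in the limma fit and 6 of the 21 at an unadjusted p under 0.05. With Rn7s1, Myc was called positively in the larger part (slope 0.45, limma adjusted p = 0.000129) and Zfp143, Gtf3c3, Gtf3a and Snapc2 negatively, where 8.31% of all genes were called positively and 26.8% negatively. Zfp143 is a factor that binds promoters of small RNA genes, Gtf3c3 is a TFIIIC subunit, and Gtf3a (TFIIIA) serves 5S ribosomal RNA genes. For the smaller part, limma called none with Rn7s1, with 1 at an unadjusted p under 0.05.

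Calls of cell type markers lay mostly with Rn7s1 in the larger part and with Rn7sk in the smaller. In the larger part no listed marker was called with Rpph1 or Rmrp, where 17.7% and 10.1% of all genes were. In the smaller part none was called with Rn7s1, where 0.0329% of all genes were. Over the larger part all 8 proliferation markers were called negatively with Rn7s1, with a median r of -0.502, where 26.8% of all genes were. All 8 were again in the 59 libraries high in Tgm4, with a median r of -0.416, where 23.0% of all genes were. Cdk1 and Ccna2 had slopes of -1.29 and -1.19 (limma adjusted p = 4.31e-06 and 1.05e-05). All 3 tested immune markers (Ptprc, Cd68 and Csf1r) and 4 of 6 stromal markers were also called negatively in both sets of libraries. Of 7 prostate luminal markers, 3 were called positively and 1 negatively with Rn7s1 over the larger part, where 8.31% and 26.8% of all genes were. None of the 6 neuroendocrine or 6 seminal vesicle markers was called there. The summed level of the 5 immune markers was between 9.90 and 76.0 rescaled TPM in the larger part, and that of the 6 stromal markers between 494 and 4566. In the smaller part, 4 of 8 proliferation markers, 5 of 6 neuroendocrine markers and 0 of 6 stromal markers were called positively with Rn7sk, and 5 of 6 stromal markers negatively, where 36.5% of all genes were called positively and 21.7% negatively. With Rn7sk there, 2 of 7 luminal and 1 of 3 immune markers were also called negatively, and 0 of 6 seminal vesicle markers were called. The summed stromal level ran from 4.76 to 7449 rescaled TPM there, and the summed neuroendocrine level from 0.906 to 1868. Without the libraries low in Chga, 3 of 8 proliferation markers were called positively, 1 of 6 neuroendocrine markers positively and 1 negatively, and 0 of 6 stromal markers, where 26.6% of all genes were called positively and 8.27% negatively. The part of these cell types in the relations of the RNAs was not tested.

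The genes most like each RNA over the 78 libraries of the larger part were mostly other short noncoding RNAs. For Rmrp the highest were Scarna6 (r = 0.886, rho = 0.856), Snora73b (r = 0.874, rho = 0.850), Snora73a (r = 0.849, rho = 0.828), Gm25395 (r = 0.838, rho = 0.792) and Gm26448 (r = 0.797, rho = 0.763), with permutation p = 1e-05 for each value. Scarna6 and Gm25395 are annotated as scaRNAs, which guide the modification of spliceosomal RNAs, and the others as snoRNAs. Rpph1 had the same 5 genes at its top, from Gm25395 (r = 0.801, rho = 0.718) to Snora73a (r = 0.747, rho = 0.696). Rn7sk had Gm26448 (r = 0.826, rho = 0.775), Scarna6 (r = 0.794, rho = 0.746), Snora73a (r = 0.779, rho = 0.749), Snora73b (r = 0.771, rho = 0.722) and Gm23262 (r = 0.770, rho = 0.748), also with permutation p = 1e-05 for each. Scarna6 also ran with Rmrp in the smaller part (r = 0.842, rho = 0.853, n = 37, permutation p = 1e-05 for each), while Snora73a and Rn7sk had r = -0.0776 and rho = -0.0192 there (permutation p = 0.649 and 0.911).

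The genes most like Rn7s1 were 7SL relatives. Gm24105 had r = 0.827 and rho = 0.860, Rn7s6 had r = 0.809 and rho = 0.818, and Gm24514 had r = 0.717 and rho = 0.706 (permutation p = 1e-05 for both, n = 78). Gm24105 was 91.7% identical to Rn7s1 over an alignment of 300 positions, Rn7s6 98.6% over the first 214 bases of Rn7s1 and Gm24514 94.9% over the first 235. Gm24105 was between 51.7 and 677 rescaled TPM, and the medians of Rn7s6 and Gm24514 were 4250 and 16.2, against 567420 for Rn7s1, so reads shared with Rn7s1 could move all 3 and their values are uncertain. The protein-coding gene Chrm1, a muscarinic acetylcholine receptor, came next (r = 0.660, rho = 0.658), and then the lincRNA Gm16063 (r = 0.644, rho = 0.669), with permutation p = 1e-05 for each.

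Because the RNAs most alike were short, each RNA was compared with the summed level of all other genes in a class of transcript length, by the longest annotated transcript. TPM divides by an effective length that is small and uncertain for transcripts near the fragment size, and the labels give cDNA fragments of about 275 base pairs. The class from 200 to under 350 bases held 2409 genes, and Scarna10 alone made up 27.8% of its sum. It also held genes named above for their high r, namely Scarna6, Gm25395, Snora73a, Snora73b and Gm26448. The 7SL relatives Rn7s6, Gm24105 and Gm24514 were in it too. The r with this class was therefore not independent of the relations with those genes. In the larger part its summed level was between 18622 and 83174 rescaled TPM. Rn7sk had r = 0.826 and rho = 0.790 with it (n = 78, permutation p = 1e-05 for each, r = 0.808 without the 2 farthest libraries). Rpph1 had r = 0.666 and rho = 0.628, and Rmrp r = 0.654 and rho = 0.570 (permutation p = 1e-05 for each). Rn7s1, of like length, had r = 0.285 (permutation p = 0.0108) and rho = 0.188 (permutation p = 0.101), and r = 0.168 without the 2 farthest. On the deposited scale the r of Rn7s1 was -0.624. With median-of-ratios scaling it was 0.580, beside 0.817 for Rn7sk, 0.720 for Rpph1 and 0.725 for Rmrp, so the gap to the other RNAs depends on the scale.

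The classes share the fixed total of 1000000, and genes of 1000 bases or more held a median of 675250 of it in the larger part and of 614218 in the smaller. A rise of the short classes therefore lowers the sum of the long class by construction, and its r was not independent of theirs. With the class of 1000 bases or more, r lay between -0.158 and 0.202 in the larger part (permutation p from 0.0744 to 0.906), although Rpph1 had rho = -0.362 (permutation p = 0.001). Within the smaller part the class from 200 to under 350 bases had r = 0.798 with Rn7sk, 0.720 with Rpph1, 0.530 with Rmrp and 0.430 with Rn7s1 (n = 37, permutation p = 1e-05, 1e-05, 0.00071 and 0.00794, rho = 0.797, 0.683, 0.583 and 0.337 with permutation p = 1e-05, 1e-05, 0.00018 and 0.0427). For Rn7s1 it was 0.235 without the 2 farthest libraries, so that relation rests on them. With genes of 1000 bases or more it was negative for Rpph1 (r = -0.549, rho = -0.579, permutation p = 0.00051 and 0.00032) and for Rn7sk (r = -0.423, rho = -0.495, permutation p = 0.0097 and 0.00228). The part of RNA quality and of size selection in these relations was not tested.

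**Figure D5:**
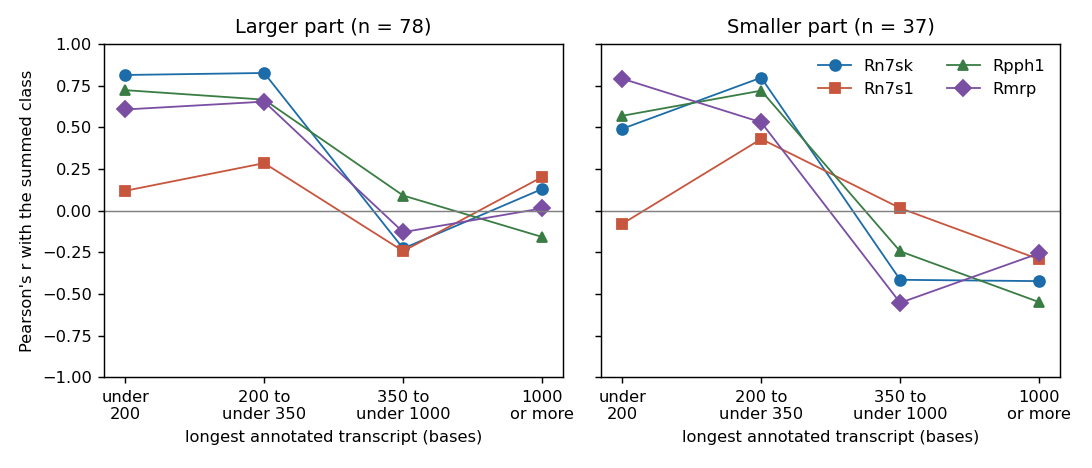
Pearson's r of each RNA with the summed rescaled TPM, on the log2 scale, of all other genes in 4 classes of longest annotated transcript, for the larger part (left) and the smaller part (right). Rn7sk, Rpph1 and Rmrp have their high values in the classes under 350 bases (0.826 for Rn7sk in the larger part), and Rn7s1 is lower in the larger part on this scale (0.285).

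Other short RNAs that were listed did not all follow. Of 19 in the table, 10 had a mean of at least 1 rescaled TPM. In the larger part limma called 3 of the 10 positively with Rn7sk, where 39.8% of all genes were. It called 2 with each of Rn7s1, Rpph1 and Rmrp, where 8.31%, 16.3% and 10.1% of all genes were. In the smaller part 2 were positive and 1 negative with Rn7sk (36.5% and 21.7% of all genes) and with Rmrp (22.9% and 7.85%). With Rpph1, 3 were positive there (19.2%), and with Rn7s1 0. The spliceosomal RNA gene Rnu2-10 was called with Rn7sk, Rpph1 and Rmrp in both parts, with a slope of 1.09 on Rn7sk in the larger part (limma adjusted p = 3.74e-08). The U1 gene Rnu1a1 was called with all 4 RNAs in the larger part. In the smaller part the 7SL-like gene Rn7s6 was called negatively with Rn7sk and with Rmrp, with slopes of -0.75 and -0.76 (adjusted p = 0.00425 and 0.000758). Medians of under 0.1 rescaled TPM were found for 13 of the 19 in the larger part, among them the Y RNAs Rny1 and Rny3 and the U6 gene Rnu6, RNAs that cells are known to use. Such low values are therefore listed here without a statement on their level in the tissue.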

How the data were processed

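The table holds 115 libraries of prostate total RNA depleted of ribosomal RNA. The study's methods count fewer mice than that for this RNA-seq, and which libraries make up the difference is not stated in the sources used here, so every n and permutation p assumes that each library is a separate mouse. The authors trimmed the reads, aligned them to a transcriptome made individual for each mouse with Bowtie2 2.2.5, and deposited TPM values estimated with RSEM 1.2.20 (base calling with CASAVA 1.8.2, genome GRCm38). The annotation release is not given in the sources used here. TPM keeps no depth, so no counting error could be given. RSEM divides by an effective length, which is uncertain for RNAs near the fragment length.

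The 5 RNAs and all gene lists were chosen with earlier results of these data known. Every value was multiplied so that a library without the 5 RNAs sums to 1000000, and log2(value + 1) was used. Genes with a mean of at least 1 rescaled TPM were tested. The libraries were split on the first principal component, and then on a marker, where a mixture of 2 normal distributions lowered BIC by more than 10, with Ashman D above 2 and at least 6 libraries on each side. Relations were Pearson's r and Spearman's rho with 100000 two-sided permutations, and slopes from limma 3.58.1 (R 4.3.3) with an intensity trend and Benjamini-Hochberg adjustment over all genes tested. Named genes were the 5 of highest r with each RNA in the larger part, and per list at most the 4 called genes of largest absolute r, besides Mki67, Chga and Tgm4. A pair of nearly identical labels was tried with 1 of them left out. On simulated data for Mki67, 199 of 200 seeded relations were recovered among 18234 genes in the larger part and 132 of 200 among 18228 in the smaller, with 10 and 11 other calls. The seeded genes were drawn at random from all genes tested. Recovery at the extreme level of the 5 RNAs, where the trend gave a wider prior SD, was therefore not measured. All seeded relations had the same absolute r, and noise was drawn independently for each gene. Recovery of weaker relations, and other calls among genes that vary together, were not measured either. Sequences and positions are from GENCODE M21 on GRCm38, and copies were searched with BLAST+ 2.17.0 (at least 80% of the RNA covered). Some sequences are not reported here. Other tools were scipy 1.17.1 for ranks, scikit-learn 1.9.0 for mixtures, Biopython 1.88 for alignment and Python 3.11.15. Gene symbols were found for 45136 of 45699 identifiers. The closing section gives the effect of other scalings, pseudocounts, filters and fits.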

Additional observations from a re-analysis of the deposited data

How the results depend on the processing

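No paired analysis was possible because all mice share 1 condition. Among comparisons of a single relation with an alternative, 322 kept their direction and side of the threshold, 16 passed it newly, 15 no longer passed it and 45 changed sign, most of them relations that were not called. Leaving out 1 library of a nearly identical pair of labels changed no call. The median summed share of 61.3% became 65.0% when 20 further genes were left out of the total.

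On the deposited scale r became -0.622 for Rn7s1 with Rn7sk, -0.373 with Rpph1, -0.235 with Rmrp and -0.624 with the class of 200 to under 350 bases in the larger part, and -0.553 with Rn7sk, -0.111 with Rpph1 and -0.250 with the class in the smaller. There it also became 0.177 for Rmrp with Mki67 in the larger part, -0.0380 and -0.0057 for Rn7s1 with Chga and with Tgm4 in the libraries low in each, and -0.0164 and -0.173 for Rpph1 and Rmrp with Chga in the smaller part. With median-of-ratios scaling it became -0.0253 and -0.0773 for Rn7sk and Rpph1 with Mki67, 0.0147 and 0.0108 for Rn7sk and Rmrp with high Tgm4, -0.144, -0.184, -0.163 and -0.117 for Rn7sk, Rn7s1, Rpph1 and Rmrp with low Tgm4, all in the larger part, and -0.0276 for Rmrp with Chga in the smaller. After 3 principal components it became -0.184, 0.0426, -0.0728 and 0.0683 for Rn7sk, Rn7s1, Rpph1 and Rmrp with Mki67, -0.138 for Rn7s1 with high Tgm4, and -0.0126, -0.149 and -0.101 for Rn7sk, Rpph1 and Rmrp with low Tgm4 in the larger part. In the smaller part it became -0.0650 for Rpph1 with Mki67 and -0.350, -0.263 and -0.322 for Rn7sk, Rpph1 and Rmrp with Chga. Without 20 further genes it became -0.0581 for Rpph1 with Mki67 and -0.0169 for Rn7s1 with low Tgm4 in the larger part, and 0.0277 for Rn7s1 with Mki67 in the smaller. On ranks it became 0.0115 for Rmrp with Mki67 in the larger part, and -0.174 and -0.110 for Rpph1 and Rmrp with Chga in the smaller. Without the libraries low in Tgm4 it became -0.0477 for Rpph1 with Mki67 in the larger part. Without the libraries set apart on Chga it became -0.411, -3.14e-05, -0.410 and -0.253 for Rn7sk, Rn7s1, Rpph1 and Rmrp with Chga, and without those set apart on Tgm4 -0.0370 for Rn7s1 with Tgm4, in the smaller part.

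In the larger part, 1 called relation with a marker became 3 on the deposited scale, 0 with median-of-ratios scaling, 4 on ranks, 2 in limma without the intensity trend and 4 over all libraries with the part as a term. In the smaller part, 1 became 0 with a pseudocount of 0.1, 0 on the deposited scale, 0 with median-of-ratios scaling, 0 after removing 3 principal components, 0 without a filter, 3 on ranks and 4 without the trend. The 3 called pairs of RNAs in the smaller part became 2 on the deposited scale, 1 with median-of-ratios scaling and 0 after removing 3 principal components. The 63 calls of partner genes in the larger part became 119 on the deposited scale, 38 with median-of-ratios scaling, 38 after removing 3 principal components and 41 without the libraries low in Tgm4. The 65 in the smaller part became 2 after removing 3 principal components and 39 without the libraries low in Chga. The fits without the trend and those without libraries low in Tgm4 or Chga were chosen after seeing the data. The cause of these changes was not tested. Depth is unknown, so what it limits could not be given.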
